A study of Rattus norvegicus with 6 samples.

Results

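The genes examined here encode molecular chaperones and their partners, measured as RNA in 6 liver samples of male Wistar rats on Affymetrix expression arrays. They comprise the heat shock proteins of the HSP70, HSP110, HSP90, HSP60, HSP10 and small families, the J-proteins, the chaperonin TRiC, and the co-chaperones Fkbp4, Fkbp5, Stip1, Ahsa1 and Bag3. Members were taken by gene symbol, as probe sets annotated with a single matching symbol, and Hspa5, Dnajb9, Dnajb11 and Dnajc3 were left out by rule. The list was drawn up with earlier results of these data known. This gave 70 of 14217 genes, or 108 of 31042 tested probe sets. A further 5 probe sets matched but carry several symbols and were not analysed here, and neither Hsp90aa1 nor Hspa8 had a probe set with a single symbol. The set is mostly but not wholly cytosolic: 9 genes (15 probe sets) encode mitochondrial proteins and 7 genes (14 probe sets) encode proteins of the endoplasmic reticulum.

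Both groups were 6-week-old males of about 150 g on arrival, housed singly, kept on pellets for 4 days and then accustomed over 4 days to taking the control diet in daytime hours only. In the last session 3 samples came from rats given an isoenergetic low protein diet (5P) for 8 hours and 3 from rats given the control diet (15P) for 8 hours, and livers were taken once 16 hours had passed without food. The low protein livers thus differ from control livers by a single feeding period, and every liver was fasted when sampled. Whether every array stands for its own animal is not spelled out in the labels, and the p-values rest on the spread among these arrays, which may be technical.

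Chaperones bind unfolded or newly made proteins and help them fold. HSP70 works in cycles of ATP hydrolysis that J-proteins start and that HSP110 proteins, acting as nucleotide exchange factors, reset; clients such as steroid receptors and kinases are passed on to HSP90 through adaptor proteins. TRiC and the mitochondrial HSP60 and HSP10 pair are barrel-shaped chaperonins that enclose their clients. Many of these genes are induced together by the transcription factor HSF1, which binds repeats of the short sequence GAA, the heat shock element, in their promoters. In liver these proteins serve a tissue with heavy protein synthesis and turnover.

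Array medians lay between 33.74 and 34.24 (RMA intensity) in low protein livers and between 33.26 and 33.57 in control livers, and pairs of arrays correlated at 0.989 to 0.994 over all probe sets (log2). Albumin (Alb), the main secreted protein of hepatocytes, read 14.4 on every array by its brighter probe set. That is the top of the intensity range, where like readings do not show that the livers held hepatocyte RNA alike. Control replicate 3 affected the number of calls most: 109 of all probe sets passed an adjusted p of 0.05 without it, against 41 with all arrays and 16 to 22 without any other array. Arrays carry no read depth, and 3 arrays per diet limit the precision. Values below are log2 RMA intensities, differences are low protein minus control on the log2 scale, SE is the moderated standard error, and adjusted p is limma's, corrected by Benjamini-Hochberg across the 31042 probe sets tested. Intensities are not compared between probe sets.

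Low protein livers had higher readings for Hspb1, Hspa1a and Hsph1, for HSP90 and its partners other than Fkbp5, and for every TRiC probe set (Cct7 only with low protein replicate 2 in the comparison). Class C J-proteins had a median difference of 0.03 and small heat shock proteins one of 0.02, as against 0.03 over all probe sets, and Bag3 had -0.08. The largest differences upward were in Hspb1 at 1.09, Hspa1a at 0.86 and Hsph1 at 0.80. None of these reached the threshold over all probe sets, the smallest adjusted p being 0.0551. Of the 108 probe sets 0 passed by limma, where 0.132% of all probe sets did (0.0354% higher and 0.0966% lower), and with the replicate number as a block 0 passed, where 0.0193% of all did. At the level of genes 0 of 70 passed, the background being 0.183%, and 21 had an unadjusted p under 0.05, of which 20 were higher and 1 lower, where 16.3% of all genes had one.

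At an unadjusted p under 0.05, 27 member probe sets were higher and 3 lower in low protein livers. That is 25% and 2.78% of the members, against 7.83% and 7.58% of all probe sets. The 3 low protein arrays lay above all 3 control arrays for 33 probe sets (30.6%, against 12.5% of all) and below them for 6 (5.56%, against 9.12% of all). In all, 77 of 108 (71.3%) had a difference above 0, as had 58.1% of all probe sets, and the median difference was 0.10, against 0.03 over all. Among probe sets at or above the median mean intensity, 26 of 78 members were higher with an unadjusted p under 0.05 (33.3%, against 8.79% of all such probe sets), and their median was 0.13, against -0.01. In that brighter part 71.8% of members had a difference above 0, against 48.9% of all, and 31 had low protein arrays above all controls (39.7%, against 12.2%), while 5 had them below (6.41%, against 14.7%). Members below that intensity contributed 1 higher and 1 lower.

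**Figure D1:**
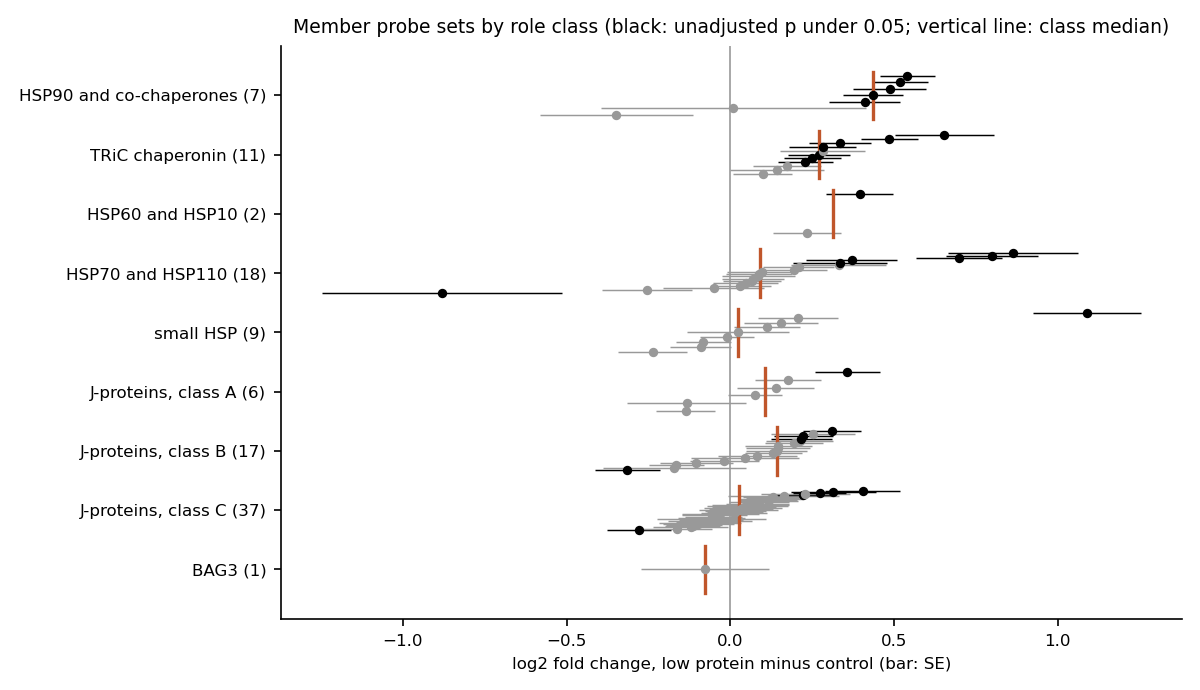
Differences of the 108 member probe sets (x axis, log2, low protein minus control, bars SE), grouped by role with the number of probe sets in brackets; black points had an unadjusted p under 0.05 and the vertical line is the class median. All TRiC probe sets and, apart from Fkbp5, those of HSP90 and its co-chaperones lie to the right of 0, with class medians of 0.27 and 0.44, and class C J-proteins are centred near 0, with a median of 0.03.

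Summed levels of red blood cell markers, but of no other non-hepatocyte marker list, did not overlap between the diets. The red blood cell markers measured (5 genes, 6 probe sets, the hemoglobin alpha genes not among them) summed to an intensity of 4072 to 4344 in low protein livers and 2885 to 3141 in control livers, with 5 of 6 probe sets higher. Hbb, by far the brightest, made up most of that sum. Only Hbb (0.48) and Alas2 (0.43) had groups that did not overlap. Ahsp (0.32), Slc4a1 (0.14 and 0.12) and Epb42 (-0.06) overlapped. Kupffer cell and macrophage markers summed to 3470 to 4942 in low protein and 2868 to 3667 in control livers, ranges that overlap. Hepatocyte markers (9 genes, 15 probe sets) summed to 120128 to 121627 in low protein and 127438 to 129278 in control livers. Of their probe sets 11 were lower and 4 higher. For 5 (33.3%, against 9.12% of all) the low protein arrays lay below all controls. Lower at an unadjusted p under 0.05 were 4 of 15: the urea cycle enzymes Cps1 (-0.70 and -0.23) and Ass1 (-0.75) and 1 of 3 Hnf4a probe sets (-0.26). Apoa1 had -0.19, also below all controls, and the Fgb probe sets had -0.13, -0.12 and -0.07. The other Hnf4a probe sets had 0.17 and -0.01, and Alb, Ttr, Serpina1 and Cyp2e1 had -0.02 to 0.10. Most of the gap between the hepatocyte sums lay in Cps1 and Ass1. In bulk liver more cells of a type and more RNA per cell cannot be told apart. The part of these differences in the chaperone readings was not tested.

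Hspb1, a small heat shock protein that holds unfolded proteins and binds actin, had the largest difference. It read 7.29, 7.42 and 7.36 in low protein livers, against 6.33, 6.59 and 5.88 in control livers. The low protein arrays lay close together and well above the controls, of which replicate 3 was lowest. The difference was 1.09 (SE 0.164), or 2.13-fold higher, with an adjusted p of 0.0551. Over 16 alternative settings the adjusted p ran from 0.0366 to 0.154. It passed in 4 of them, in which 0.351%, 0.19%, 0.329% and 0.332% of all probe sets passed: without control replicate 3 (0.90, adjusted p = 0.0366), with arrays centred on their 75th percentile (0.0413), with array weights (0.0443) and with a robust prior variance (0.0457).

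Hsph1, the HSP110 partner that exchanges nucleotide on HSP70, was higher by both of its probe sets. The brighter read 9.46, 9.92 and 9.65 in low protein livers and 8.67, 8.97 and 8.99 in control livers, a difference of 0.80 (SE 0.141, 1.74-fold, adjusted p = 0.0705). The other read 7.86, 8.30 and 8.01 in low protein livers, against 7.21, 7.49 and 7.37 in control livers (0.70, SE 0.131, adjusted p = 0.0809). Low protein replicate 2 was the highest array for both and no low protein array overlapped a control array. Over the alternatives the brighter probe set stayed between 0.68 and 0.91, with an adjusted p of 0.0548 to 0.191.

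Both promoters hold the letters of the heat shock element, and the 250 bases before the annotated start are shown because Hspb1 had the largest difference and Hsph1 holds the longer form of the element with differences in both probe sets. Capitals mark GAANNTTC or TTCNNGAA, a pair of inverted GAA units; each reads the same on both strands. The sequences are RefSeq's for GRCr8, from chr12:26432302-26432551 (minus strand) for Hspb1 and chr12:10427118-10427367 (plus strand) for Hsph1.
Hspb1: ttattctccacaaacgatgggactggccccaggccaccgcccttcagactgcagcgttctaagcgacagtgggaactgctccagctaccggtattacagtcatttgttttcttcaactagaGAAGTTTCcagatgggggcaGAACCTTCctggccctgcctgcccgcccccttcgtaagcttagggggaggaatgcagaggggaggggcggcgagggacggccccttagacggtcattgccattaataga
Hsph1: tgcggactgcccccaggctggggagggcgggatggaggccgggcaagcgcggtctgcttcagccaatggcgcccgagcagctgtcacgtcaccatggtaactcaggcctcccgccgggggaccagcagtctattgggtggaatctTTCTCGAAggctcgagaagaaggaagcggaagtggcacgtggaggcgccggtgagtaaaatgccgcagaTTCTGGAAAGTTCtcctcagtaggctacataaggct
In Hspb1 the pairs begin at positions -129 and -109 before the start. In Hsph1 a pair begins at -105, and the overlapping pairs at -36 and -31 make up the longer 3-unit form TTCNNGAANNTTC.

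Hspa1a, the stress-inducible HSP70, read 6.53, 7.29 and 7.26 in low protein livers, against 5.99, 6.26 and 6.24 in control livers. Low protein replicate 1 lay much nearer the controls than the other low protein arrays did. The difference was 0.86 (SE 0.198, 1.82-fold, adjusted p = 0.112), and without that array it was 1.11 and passed (adjusted p = 0.0460, the range over the alternatives being 0.0460 to 0.281 and the share of all probe sets that passed without that array 0.0709%). Hspa1a and Hspa1b are near-identical copies, so this probe set may read both. Another probe set annotated with both symbols was not used. Its promoter window held no match to the element's letters.

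**Figure D2:**
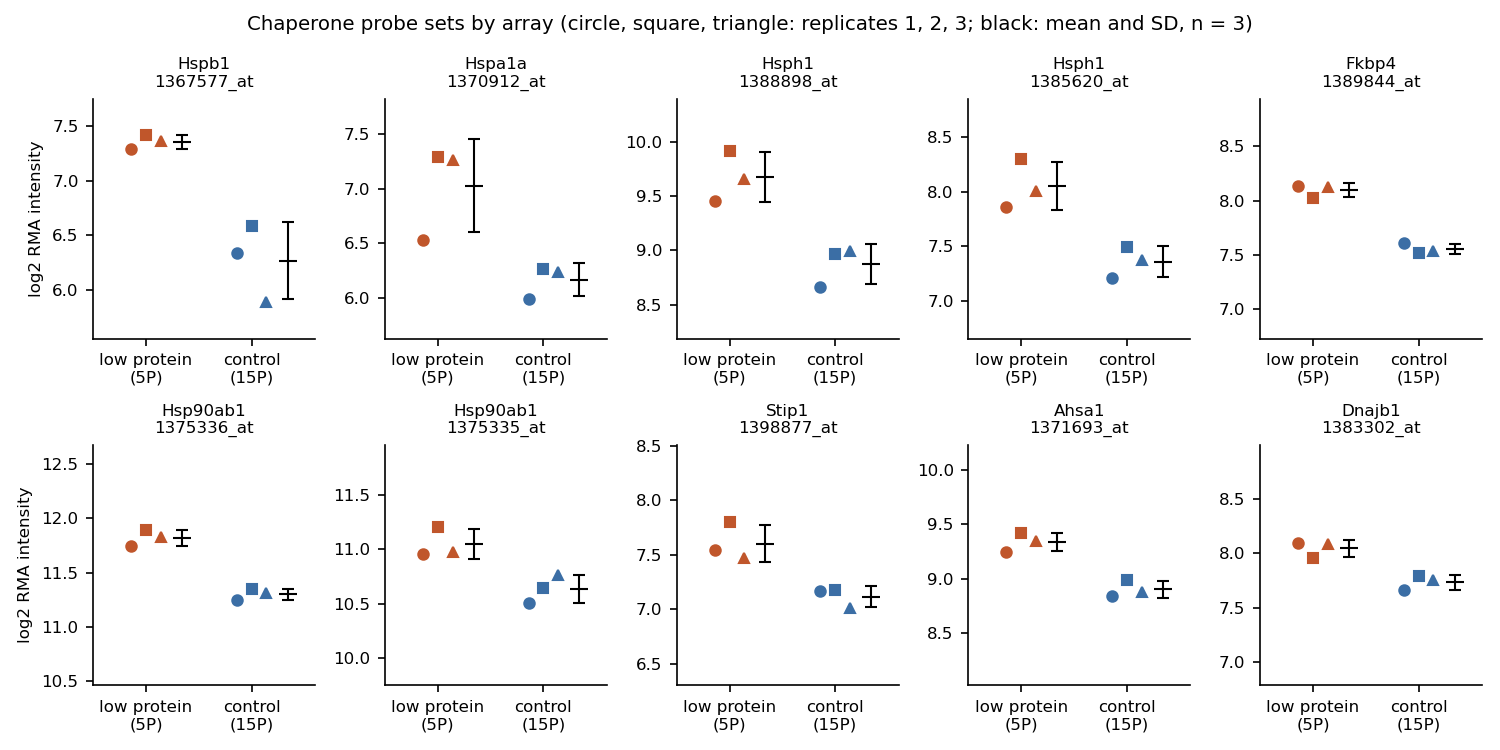
Log2 RMA intensity (y axis, all panels spanning the same number of log2 units) of 10 probe sets of 8 chaperone genes on the 3 low protein and 3 control arrays, with the mean and SD in black. In all 10 panels the low protein arrays lie above the control arrays; for Hspa1a low protein replicate 1, at 6.53, is closest to the controls.

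Hsp90ab1, the constitutive cytosolic HSP90, was higher by both probe sets. The brighter read 11.74, 11.89 and 11.82 in low protein livers, against 11.24, 11.35 and 11.31 in control livers, so that each group was tight and the groups were well apart. Its difference was 0.52 (SE 0.0862, 1.43-fold, adjusted p = 0.0653), and the other read 10.96, 11.20 and 10.98 in low protein livers, against 10.50, 10.64 and 10.76 in control livers (0.41, SE 0.109). No alternative tried brought either past the threshold over all probe sets. Tested as 1 probe set per gene, Hsp90ab1 passed with an intensity-dependent prior variance (0.0494). The share of all genes that passed in that setting was not counted. Of all probe sets 37 passed in it, against 41 in the main comparison.

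The proteins that work with HSP90 showed differences of like size. Fkbp4, the immunophilin FKBP52 that joins HSP90 in steroid receptor complexes, read 8.14, 8.02 and 8.13 in low protein livers and 7.61, 7.52 and 7.53 in control livers. It was 1.45-fold higher (0.54, SE 0.0844, adjusted p = 0.0571), and passed with array weights and with a robust prior variance (adjusted p = 0.0476 and 0.0490, the range over alternatives being 0.0476 to 0.157). Stip1, the adaptor HOP that links HSP70 to HSP90, read 7.54, 7.80 and 7.47 in low protein livers, against 7.17, 7.17 and 7.01 in control livers. Its difference was 0.49 (SE 0.111, adjusted p = 0.111). Ahsa1, the activator of the HSP90 ATPase, read 9.25, 9.42 and 9.35 in low protein livers and 8.84, 8.99 and 8.88 in control livers, a difference of 0.44 (SE 0.0910, adjusted p = 0.0961). Of the 7 probe sets of this class, 5 (71.4%) had groups that did not overlap, all upward, against 12.5% of all probe sets, and the exceptions were both of Fkbp5.

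Fkbp5, the immunophilin FKBP51, which competes with Fkbp4 and is a known glucocorticoid target, did not follow them. Its brighter probe set read 8.66, 8.37 and 8.44 in low protein livers, against 7.52, 9.49 and 8.44 in control livers. The low protein arrays, with an SD of 0.15, lay inside the range of the controls, with an SD of 0.99. The difference of 0.01 (SE 0.406) has a 95% interval from -0.92 to 0.94, so these arrays do not show whether the diet altered it. It was -0.47 without control replicate 1 and 0.51 without control replicate 2. It was -0.07 without low protein replicate 1, -0.01 without control replicate 3 and -0.02 with median centring. The second probe set read 6.67, 6.69 and 6.59 in low protein livers, against 6.51, 7.59 and 6.89 in control livers (-0.35, SE 0.233), with the controls in the same order.

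Among 14 other glucocorticoid-responsive genes of 18 listed, Fkbp5 apart (20 probe sets), 7 probe sets were higher and 13 lower, with a median of -0.13. None passed by limma with all arrays, and 1 (5%) had an unadjusted p under 0.05, against 15.4% of all probe sets. That was Nr3c1, the glucocorticoid receptor itself and a client of HSP90, which read 9.23, 9.17 and 8.94 in low protein livers, against 9.98, 9.61 and 9.82 in control livers. All low protein arrays were below all controls, with a difference of -0.69 (SE 0.124, adjusted p = 0.0739). Its second, dimmer probe set gave -0.22 with groups that overlapped. The target genes Klf9, Errfi1 and Sgk1 had -0.24 (the Klf9 probe set of smallest p), -0.21 and -0.48, none with an unadjusted p under 0.05. Differences above 0 were found for the listed genes Tsc22d3 (0.30), Cebpd (0.17 and 0.16 by 2 probe sets, -0.06 by another), Mt2A (0.12), Lcn2 (0.07) and Per1 (0.06), also without such a p. Of the other Klf9 probe sets the dimmest had 0.05 and the brightest -0.22. Below 0 were Tat (-0.35), Mt1 (-0.17, low protein arrays below all controls), Cebpb (-0.09) and Pck1 (-0.04), again without such a p. The phosphatase gene Dusp1 read 10.35, 10.34 and 12.21 in low protein livers, against 11.49, 11.83 and 11.70 in control livers, where low protein replicate 3 alone was above the controls (-0.71, and -1.33 with an adjusted p of 0.0273 without that array).

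**Figure D3:**
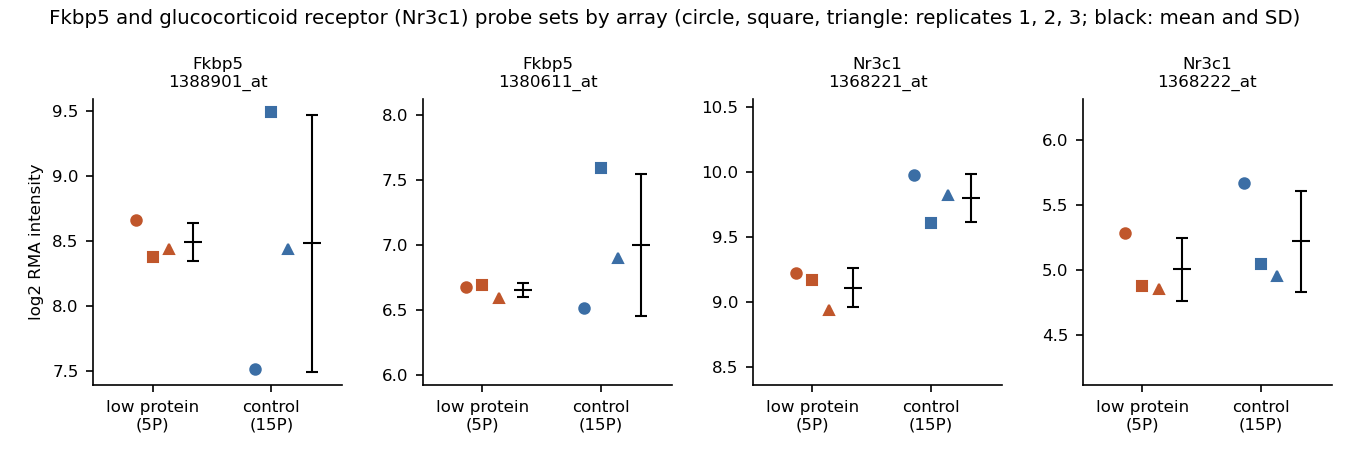
Log2 RMA intensity (y axis, panels spanning the same number of log2 units) of both Fkbp5 and both Nr3c1 probe sets on the 3 low protein and 3 control arrays, with the mean and SD in black. The Fkbp5 controls spread from 7.52 to 9.49 while the low protein arrays stay between 8.37 and 8.66, and the brighter Nr3c1 probe set is lower on all low protein arrays.

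TRiC, the chaperonin that folds actin and tubulin in the cytosol, was higher in low protein livers by all 11 probe sets of its 8 measured subunit genes. For 8 of them (72.7%) the groups did not overlap, against 12.5% of all probe sets in that direction. An unadjusted p under 0.05 was found for 7 (63.6%, against 7.83% higher over all), and none passed over all probe sets. The median difference was 0.27 and ran from 0.20 (without low protein replicate 2) to 0.34 (without low protein replicate 1) over the alternatives. Cct6a read 10.12, 10.30 and 10.18 in low protein livers, against 9.69, 9.73 and 9.72 in control livers. That separation was wide relative to the spread (0.49, SE 0.0870, 1.40-fold, adjusted p = 0.0739). The second Cct6a probe set was dim and had 0.10.

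Cct8 had the largest difference of the chaperonin, at 7.01, 7.58 and 7.09 in low protein livers and 6.68, 6.57 and 6.48 in control livers (0.65, SE 0.152, adjusted p = 0.117). Low protein replicate 2 stood above the other low protein arrays, and the second Cct8 probe set gave 0.28. Tcp1, the alpha subunit, read 11.00, 11.08 and 11.06 in low protein livers, against 10.59, 10.85 and 10.70 in control livers (0.33, SE 0.0950). Cct3 read 9.49, 9.58 and 9.42 in low protein livers, against 9.19, 9.26 and 9.28 in control livers (0.25, SE 0.0869). Cct2 and Cct5 had 0.23 and 0.27 (the brighter Cct5 probe set), also with groups that did not overlap. Cct4 had 0.17 with groups that did, and 0.11 without control replicate 1. Cct7 read 9.99, 10.39 and 9.80 in low protein livers, against 9.95, 9.88 and 9.91 in control livers. Its difference of 0.14 rested on low protein replicate 2 and was -0.02 without that array.

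The mitochondrial chaperonin differed in the same direction. Hspe1, the HSP10 lid, read 12.13, 12.24 and 12.34 in low protein livers, against 11.79, 11.75 and 11.98 in control livers (0.39, SE 0.102, adjusted p = 0.146). Hspd1, the HSP60 barrel, read 12.13, 12.40 and 12.19 in low protein livers and 11.96, 11.95 and 12.11 in control livers (0.23, SE 0.103, adjusted p = 0.33). The groups did not overlap for either gene, though low protein replicate 1 came close to control replicate 3 for Hspd1, whose difference was 0.15 without low protein replicate 2.

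**Figure D4:**
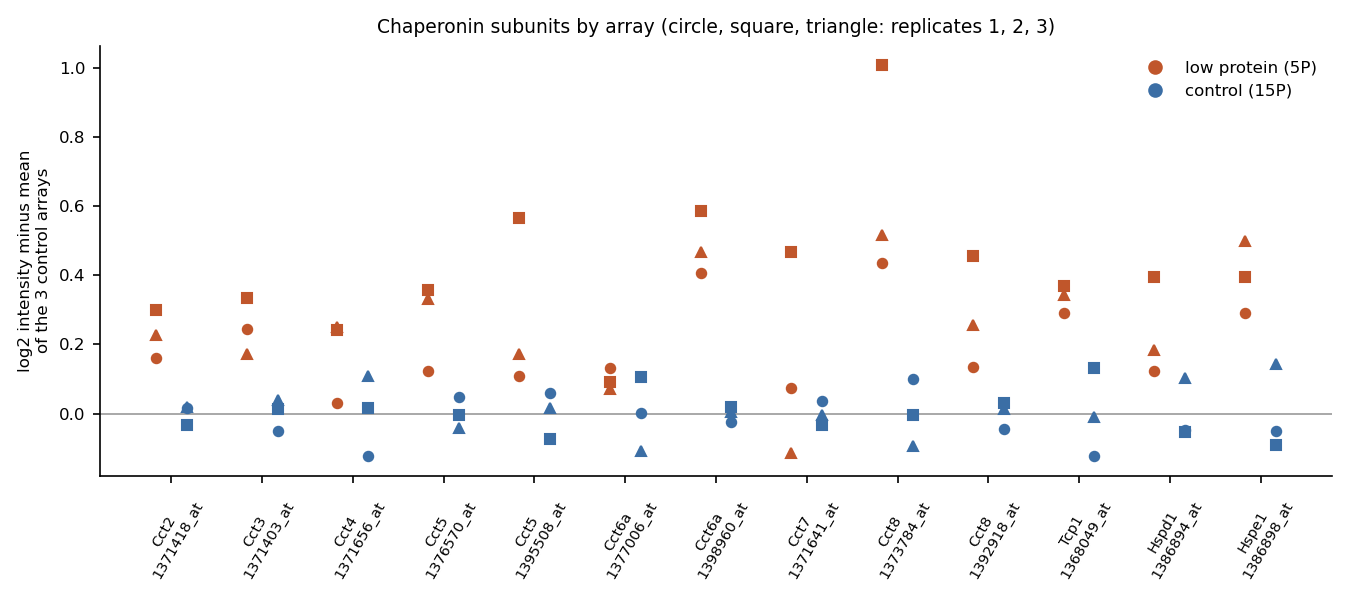
Log2 intensity minus the mean of the 3 control arrays (y axis) for 11 TRiC and 2 mitochondrial chaperonin probe sets (x axis); orange points are low protein arrays and blue points control arrays. All 13 low protein means lie above 0, and low protein replicate 2 (squares) is often the highest, as for Cct8 and Cct7.

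Hspd1 and Hspe1 lie head to head, and their windows share a run of overlapping 3-unit matches, shown because it stands in both genes' windows. Cct4 and Dnaja1 are the other chaperone genes besides Hsph1 with a 3-unit match (GAANNTTCNNGAA or its reverse complement TTCNNGAANNTTC), each within the first 50 bases after its start. The stretches of 30 bases are RefSeq's for GRCr8, all read from the plus strand, from chr9:64084256-64084285 (the strand of Hspe1), chr14:101193073-101193102 and chr5:60638404-60638433, with the 2-unit matches, which overlap, in capitals.
Hspe1 and Hspd1: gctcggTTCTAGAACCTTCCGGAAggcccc
Cct4: ggcgtcgctTTCTGGAAGGTTCgtggaggc
Dnaja1: ggccgggcgGAACTTTCCAGAAcgctcggt
Windows from 250 bases before to 50 after the start were found for 59 of the 70 genes. A 2-unit match occurred in 20 of them (33.9%), against 16.7% of all 27457 genes with a window and 12.5% of the 11701 on this array. A 3-unit match, which always contains overlapping 2-unit matches, occurred in 5 (8.47%), against 0.794% and 0.487%; Hspd1 and Hspe1 count separately though they share theirs. Fkbp4, Stip1, Dnajb1, Bag3, Cct5 and Cct6a were among the genes with a 2-unit match. So were Hspb6, Dnajc18 and Hspa4l, which like Bag3 had differences below 0 (-0.24, -0.09 and -0.05). Hspa2, Dnajb6, Dnajc27, Hspa9 and Hspb8 also had one. Ahsa1, Hsp90ab1, Tcp1, Cct2, Cct3, Cct7 and Cct8 had windows without these letters, and a match is a description of the sequence, not of binding. Only exact matches within the windows were searched, so a window without one does not show that a gene lacks the element.

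In the HSP70 and HSP110 class, 15 of 18 probe sets were higher (83.3%, against 58.1% of all). At an unadjusted p under 0.05, 5 were higher and 1 lower (27.8% and 5.56%, against 7.83% and 7.58% of all), and the class median was 0.09. Its median was 0.33 over the probe sets at or above the median intensity of the array. Hspa9, the mitochondrial HSP70 (mortalin), had 4 probe sets of both signs. Its brightest read 11.22, 11.67 and 11.24 in low protein livers, against 10.90, 10.96 and 11.16 in control livers (0.37, SE 0.139, and 0.22 without low protein replicate 2). The next brightest had 0.33, and 0.17 without that array, and a dim one had 0.33, and 0.20 without control replicate 1. Another dim probe set read 3.72, 4.49 and 3.64 in low protein livers and 4.33, 5.71 and 4.45 in control livers, a difference of -0.88 (SE 0.367, and -0.44 without control replicate 2). That was the largest difference downward among all members, and it overlapped. Hspa4, another HSP110 relative, had 0.19, Hspa13 of the endoplasmic reticulum 0.10 and the ribosome-associated Hspa14 -0.25. Hspa2 and Hspa1l, known from testis, were dim, with a mean of 2.92 for Hspa1l and of 2.94 and 2.24 for the Hspa2 probe sets, and had differences of 0.07, 0.03 and 0.09.

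Among small heat shock proteins Hspb1 stood alone: the other 8 probe sets ranged from -0.24 to 0.21 and none had an unadjusted p under 0.05. Hspb6, known from muscle, had the lowest difference (-0.24, SE 0.105). It read 5.01, 4.97 and 5.05 in low protein livers, against 5.16, 5.14 and 5.44 in control livers, the low protein arrays lying below all controls. The class median of 0.02 took either sign, at -0.03 without control replicate 2, -0.0038 with median centring, -0.03 with quantile normalization and 0.19 without control replicate 3. Hspb7, known from heart, had 0.15 by its brighter probe set and -0.01 by the other. Hspb8, which acts with Bag3, had 0.21 (SE 0.122) by its brighter probe set, and 0.08 without control replicate 1. Bag3, the co-chaperone that links HSP70 and Hspb8 to selective autophagy and a classical HSF1 target, read 8.35, 8.16 and 7.99 in low protein livers, against 7.86, 8.19 and 8.67 in control livers. The groups overlapped fully. Its difference was -0.08 (SE 0.195, 95% interval -0.52 to 0.37), with 0.14 without control replicate 3 and 0.01 both without low protein replicate 3 and with array weights.

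J-proteins, which deliver clients to HSP70 and start its ATP hydrolysis, made up 60 probe sets of 36 genes, of which 8 were higher and 2 lower at an unadjusted p under 0.05. That share, 16.7% in either direction, is close to the 15.4% of all probe sets. By direction it is 13.3% higher and 3.33% lower, against 7.83% and 7.58%, and 0 passed after adjustment by limma. Their median was 0.05, against 0.20 for the 48 other members. In class A, Dnaja1, a general HSP70 partner, read 10.61, 10.69 and 10.70 in low protein livers, against 10.24, 10.21 and 10.48 in control livers (0.36, SE 0.0994, adjusted p = 0.164). That was its dimmer probe set, and the brighter had 0.18 with groups that overlapped. Dnaja2, a paralog with a like role, had -0.14 (SE 0.0899), and Dnaja4 had 0.14 by its dim probe set and -0.13 by the brighter.

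In class B, Dnajb1 (HSP40), the inducible partner of HSP70, read 8.09, 7.96 and 8.09 in low protein livers and 7.66, 7.79 and 7.76 in control livers by its dimmer probe set. Its groups did not overlap by either probe set, with differences of 0.31 (SE 0.0885, adjusted p = 0.171) and 0.21. Dnajb2 read 8.20, 8.27 and 8.45 in low protein livers, against 8.11, 8.07 and 8.08 in control livers by its brighter probe set (0.22). Dnajb13, known from sperm flagella, also had 0.22 and did not overlap. Dnajb14, an endoplasmic reticulum membrane protein, had 3 probe sets of mixed sign. The brightest read 6.34, 6.44 and 6.45 in low protein livers, against 6.78, 6.83 and 6.57 in control livers (-0.31, SE 0.0985), and the next had 0.14 with low protein arrays above all controls. The third, near the bottom of the intensity range, had 0.04, which turned to -0.06 without low protein replicate 3 and to -0.05 without control replicates 1 or 2.

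Class C, whose members carry a J-domain on otherwise unlike proteins, held 37 probe sets with a median of 0.03, and the median over all probe sets was also 0.03. The class median was -0.02 without low protein replicate 3, 0.07 with arrays centred on the 75th percentile and -0.0017 centred on the median. Dnajc15, of the inner mitochondrial membrane, read 9.25, 9.26 and 9.61 in low protein livers, against 8.96, 8.97 and 8.98 in control livers (0.40, SE 0.114, adjusted p = 0.167). The controls were nearly identical and all 3 low protein arrays lay above them. Dnajc9, a histone chaperone, had 0.31 (SE 0.129) with groups that overlapped. Dnajc27 read 5.36, 5.31 and 5.34 in low protein livers, against 5.10, 5.08 and 5.02 in control livers (0.27, SE 0.0812). Dnajc1, of the endoplasmic reticulum membrane, had differences below 0 in all 3 probe sets, at -0.28 (SE 0.0984), -0.10 and -0.06.

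By compartment, the endoplasmic reticulum members were higher in 5 of 14 probe sets, with a median of -0.06. Mitochondrial members were higher in 14 of 15, with a median of 0.08, and the other members in 58 of 79, with a median of 0.13. Of the 29 genes with several probe sets, 10 had probe sets of both signs. Only Hspa9 and Dnajb14 among them had an unadjusted p under 0.05 in any probe set.

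Array by array, the member classes were not equally high. The HSP90 class had medians of 0.35, 0.52 and 0.35 above the control mean on low protein replicates 1, 2 and 3, and -0.06, 0.06 and -0.02 on the control arrays. TRiC had 0.14, 0.37 and 0.25 on the low protein arrays and 0.00, 0.01 and 0.00 on the controls, so that even the lowest low protein array lay above them. The red blood cell markers had 0.16, 0.40 and 0.13 on low protein arrays and -0.03, -0.03 and 0.02 on control arrays. TRiC, the HSP90 class and these markers were all highest on low protein replicate 2. So were HSP60 and HSP10 (0.40) and HSP70 and HSP110 (0.21). Class A, B and C J-proteins and all members together (0.15) were highest on low protein replicate 3.

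**Figure D5:**
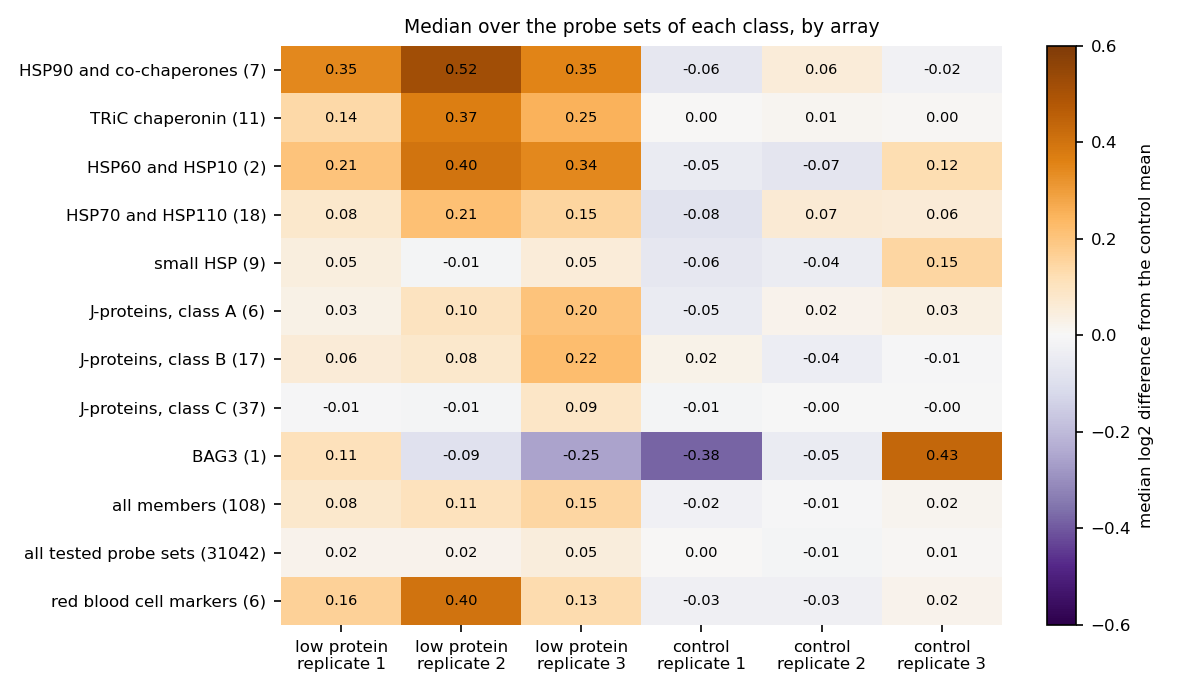
Median over the probe sets of each class (rows, number of probe sets in brackets) of the log2 difference from the mean of the 3 control arrays, on each array (columns). The HSP90 class and TRiC are above 0.1 on all low protein arrays, class C J-proteins stay between -0.01 and 0.09, and the red blood cell markers peak on low protein replicate 2.

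Other genes of the heat shock network, 39 measured of 40 listed (53 probe sets), had 9 probe sets higher and 1 lower at an unadjusted p under 0.05, and 0 passed by limma. That is 18.9% in either direction, against 15.4% of all probe sets. By direction it is 17% higher and 1.89% lower, against 7.83% and 7.58%. Low protein arrays lay above all controls for 28.3% and below them for 5.66%, against 12.5% and 9.12%. The median was 0.08. Hsf1, the regulator itself, read 5.47, 5.81 and 5.64 in low protein livers and 5.83, 5.68 and 5.67 in control livers, overlapping (-0.09, SE 0.110). The probe set lower at an unadjusted p under 0.05 was of Hsf2, a relative of Hsf1 (-0.25, SE 0.0918). Its low protein arrays lay below all controls, and the other Hsf2 probe sets had -0.12, -0.10 and -0.09. St13, the HSP70-interacting protein HIP, had 0.32 (SE 0.0814) by one probe set and -0.03 by its brighter one. Pfdn2, a subunit of prefoldin, which hands clients to TRiC, had 0.43 (SE 0.117) by its dimmer probe set and 0.07 by the other. Clpb, a mitochondrial disaggregase, had 0.45 (SE 0.123) by the probe set of smallest p and 0.38 and 0.09 by the others, and Hsp90b1, the HSP90 of the endoplasmic reticulum, had 0.45 (SE 0.128). The cold-inducible RNA-binding genes Cirbp and Rbm3, which in mammals are raised by lowered temperature, were higher in 4 of 4 probe sets. Of all probe sets 58.1% were higher. Low protein arrays lay above all controls for 1 of the 4 (25%, against 12.5% of all). The Cirbp probe set of smallest p had 0.47 (SE 0.136, adjusted p = 0.177), its other probe sets had 0.19 and 0.02, and Rbm3 had 0.22 (SE 0.188).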

How the data were processed

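Liver RNA of 6 samples was measured on Affymetrix rat arrays after 3' IVT labelling (labels' protocols). For each array the authors deposited 1 intensity per probe set, made with RMA per the submitters' processing notes, with no software named. RMA makes the distribution of intensities alike between arrays, which hides a shift common to most genes. Since deposited intensities lay between 3.61 and 21668 they were taken as linear, and log2 was applied. Of 31099 probe sets, 57 Affymetrix controls were left out; 20826 of the rest had 1 gene symbol, 436 several, and 9780 were unnamed here. Symbols come from the platform annotation, and the gene IDs of all 108 members matched RefSeq (GRCr8) with 0 symbols altered. Low protein was compared with control by limma 3.58.1 in R 4.3.3 (lmFit, eBayes, two-sided, Benjamini-Hochberg, threshold 0.05, 4 residual and 8.38 total degrees of freedom), without an intensity filter, and again on 14217 genes, each by its probe set of highest mean. The procedure was tested on simulated data. Figures used matplotlib 3.10.9.

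Members, role classes and other gene lists were chosen with earlier results of these data known. The rule for named members took those past the threshold, up to 4 probe sets of smallest p per role class, the 12 largest differences each way with an unadjusted p under 0.05, a few core chaperones, genes whose probe sets disagree, and from each outside list up to 4 of smallest p with Hsf1, Cirbp and Nr3c1. Cct2, Cct4, Cct5, Cct7, Hspa2, Hspa4, Hspa4l, Hspa13, Hspa14, Hspa1l, Dnajb6, Dnajc18, Dusp1, Tsc22d3, Cebpd and Per1 were named after their values were seen. So were Hsf2, Tat, Pck1, Mt1, Mt2A, Cebpb, Lcn2, the hepatocyte and red blood cell markers, Hspb7's dimmer probe set and other second probe sets. Markers of other cell types were listed for red blood cells, macrophages, neutrophils, lymphocytes, stellate, endothelial and bile duct cells and muscle; at an unadjusted p under 0.05, where 15.4% of all probe sets lay, these had 2 of 6 (higher), 0 of 7, 0 of 4, 0 of 9, 0 of 11, 1 of 8 (higher), 2 of 5 (lower) and 1 of 6 (higher) probe sets, and hepatocyte markers 4 of 15 (lower). Samples with the same replicate number did not deviate together (correlations of -0.09, -0.03 and -0.10), so the numbers were not treated as pairs. The alternatives are given in the closing section.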

Additional observations from a re-analysis of the deposited data

How the results depend on the processing

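Of 634 values under the alternatives, over the 40 member probe sets that the naming rule took, 617 kept their direction and their side of the threshold, 7 passed, and 10 turned direction. Those that passed, given above, were Hspb1, Fkbp4 and Hspa1a. Those that turned were the brighter Fkbp5 probe set (-0.0177 with median centring, and from -0.47 to 0.51 with an array left out), Bag3 (0.0131 with array weights, and from -0.27 to 0.14 with an array left out) and the dimmest Dnajb14 probe set (from -0.0575 to 0.23 with an array left out). Over all 108 members 30 probe sets turned direction under some alternative, 0 of them with an unadjusted p under 0.05 on all arrays. Among those mentioned outside the rule these were Cct7, Hspa4l, Dnajb6, Dnajc18, the brighter probe sets of Hspa2 and Dnaja4, and the dimmer or dimmest of Hspb7 and Dnajc1.

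The count of all probe sets past the threshold, 41 as deposited, was 103 with a robust prior variance, 78 with median centring, 102 with array weights, 0 with a pseudocount of 16 and 16 to 109 with an array left out. With the replicate number as a block it was 6, and 0 members passed; the numbers only name the samples, whose deviations did not pair. Member probe sets past the threshold numbered 0 as deposited, 2 with a robust prior variance, 1 with 75th-percentile centring, 2 with array weights and 0 or 1 with an array left out (1 without low protein replicate 1, Hspa1a, and 1 without control replicate 3, Hspb1). Member genes past it numbered 0 as deposited, 1 with an intensity-dependent prior variance, 1 with 75th-percentile centring, 2 with quantile normalization (Hspb1 and Fkbp4), 1 with the pseudocount (Fkbp4) and 0 or 1 with an array left out. Using the mean of a gene's probe sets or the probe set of largest SD gave 0. The share of all genes that passed was counted only as deposited (0.183%), so the gene counts under alternatives have no background beside them. Counts at an unadjusted p, chosen after seeing the data, ran from 18 to 33 for higher members and, with an array left out, from 1 to 4 for lower ones.

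The median over members, 0.10, was 0.07 with median centring, 0.15 with 75th-percentile centring and 0.13 with the filter at the median intensity. That of HSP70 and HSP110, 0.09, was 0.19 and 0.33 with filters at the 25th and 50th percentile. The small heat shock proteins, at 0.02, had 0.15 with the filter at the median intensity and -0.0312 to 0.19 with an array left out. Class C J-proteins, at 0.03, had 0.0745 with 75th-percentile centring and -0.0213 to 0.0516 with an array left out. The causes were not tested. The HSP90, TRiC, HSP60 and HSP10 and class A and B medians kept their sign in all 16 alternatives. The number of arrays, and signal near background in the dim probe sets, limit the precision.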
